A study of Mus musculus with 8 samples.

Results

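The genes described here are 10 components of Notch signalling in SV-LECs, comprising the receptors Notch1, Notch2, Notch3 and Notch4, the ligands Jag1, Jag2 and Dll1, and the target genes Hes1, Hey1 and Heyl. They were picked by symbol from a table of read counts with 55471 gene rows, in which each symbol occurred in 1 row. SV-LECs are a mouse lymphatic endothelial cell line immortalized with SV40, derived from mesenteric adventitial tissue, and they were cultured without treatment or with TGFβ1 at 10 ng/ml for 72 h. RNA sequencing was done on 4 libraries per group, 8 in all, with total counts between 18952504 and 26386941. The methods describe the libraries as technical replicates, and the p-values therefore cover variation between these libraries and not between independent cultures or animals.

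Notch receptors are single-pass membrane proteins that are activated by ligands on a neighbouring cell. Ligand binding exposes the receptor to cleavage by ADAM proteases and then by γ-secretase, and the freed intracellular domain enters the nucleus, where it joins the DNA-binding protein RBPJ and Mastermind-like coactivators and switches on genes of the HES and HEY repressor families. In blood and lymphatic vessels the pathway is known for roles in sprouting, arterial identity and, through Notch3 and Jag1, the maturation of the mural cells around vessels.

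The labelled cell type was only partly visible in its defining markers. Of 10 pan-endothelial genes, 5 had at most 3 counts in every library, among them Cdh5, and Pecam1 had at most 5 counts. Tek, Kdr and Esam passed the filter, with means of 0.659, 11.6 and 2.85 CPM in untreated libraries. Of 8 lymphatic genes, 4 had at most 3 counts in every library, among them Prox1 and Lyve1, while Pdpn and Flt4 were expressed. In untreated libraries the pan-endothelial genes summed to between 14.0 and 16.1 CPM and the lymphatic genes, mostly Pdpn, to between 412 and 448 CPM. Fibroblast genes, 6 in number and mostly Col1a1 and Col1a2, summed to between 7977 and 10317 CPM. A list of 9 mural cell genes summed to between 981 and 1048 CPM. The text therefore refers to the cells by the name of the line.

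After TGFβ1, Notch3 and Jag1 rose about as strongly as each other, and Notch3 came to make up most of the receptor mRNA that was measured per length. The receptors Notch1, Notch2 and Notch4, the ligand Jag2 and the target Hes1 also rose. Notch4 rose by about as much as Jag1, but from few counts. Dll1, Hey1 and Heyl had too few counts to pass the filter. Of the 10 genes, 7 were tested, and all 7 were higher after TGFβ1 and 0 were lower at an FDR under 0.05 (Benjamini-Hochberg, edgeR's likelihood ratio test over 13818 genes). The count of lower genes was also 0 at an unadjusted p under 0.05, in edgeR's quasi-likelihood test and in DESeq2. This has to be read against a treatment that moved most of the table, since 75.6% of all genes tested were called in one direction or the other and 37.6% were called higher. A log2 fold change above 1 was reached by 6 of the 7, against 10.9% of all genes tested. In all 7 every TGFβ1 library lay above every untreated library, against 34.7% of all genes tested. The median log2 fold change was 1.71 for the 7 genes and -0.01 for all genes. Notch4, with at most 7 counts in any untreated library, passed the filter through its treated libraries and could hardly have been called lower. It is included in the counts and in the median given here. Because RNA was measured in bulk, more cells of a type and more RNA per cell cannot be told apart.

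**Figure D1:**
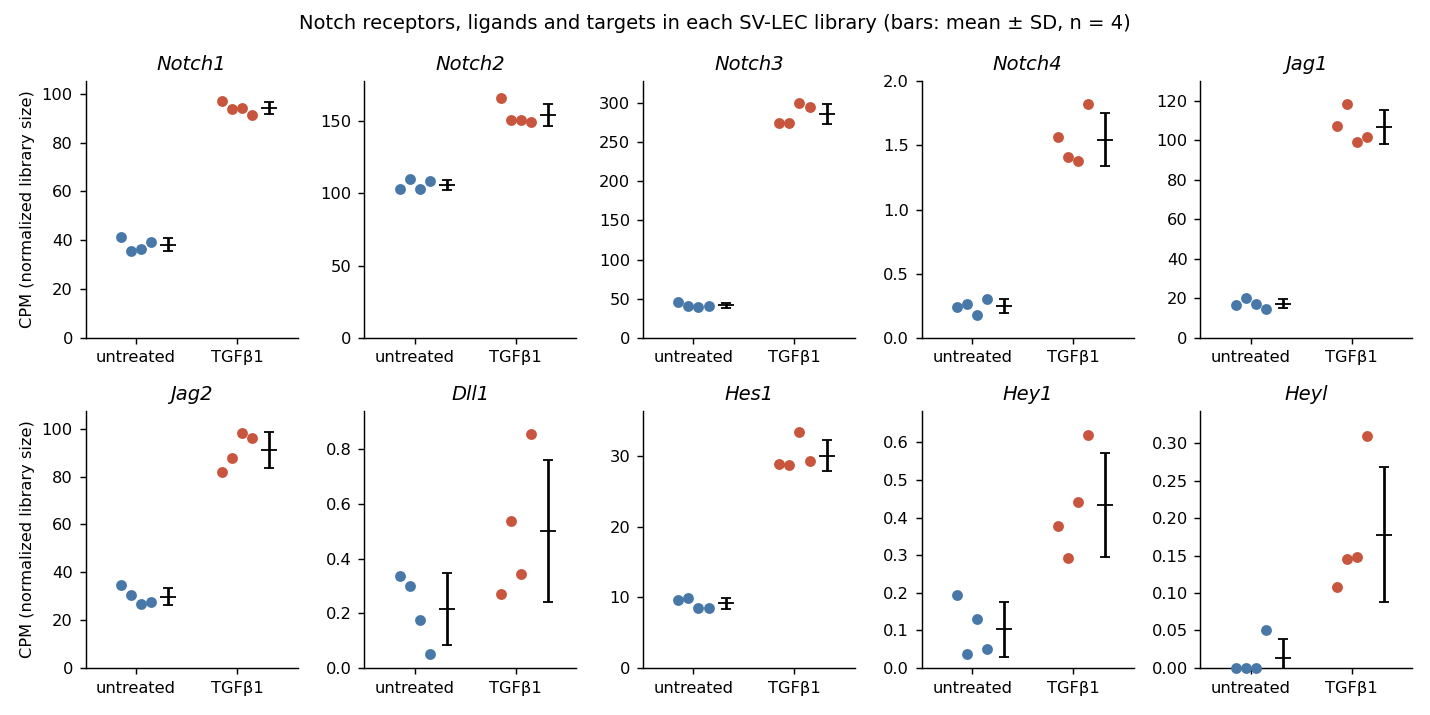
CPM (counts scaled to normalized library size) of the 10 Notch genes in each library, 1 panel per gene with its own axis from 0. Blue points are untreated and red points TGFβ1-treated libraries, and bars give the mean ± SD of 4 libraries (the bar of Heyl in untreated libraries is drawn down to 0 only). The groups overlap in Dll1 and in no other panel.

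Promoter sequence was looked up for all 10 genes in RefSeq on GRCm38.p6, and 7 of them matched with 8 windows of 250 bases before to 50 bases after a start site. No window was found for the target genes Hes1, Hey1 and Heyl, so their promoters were not searched. The upstream bases of Notch3 and Jag1 are shown because these genes had the largest log2 fold changes among the receptors and among the ligands tested. The Notch3 sequence lies at chr17:32166891-32167140 and the Jag1 sequence at chr2:137116521-137116770, both on the minus strand. Sequences run 5′ to 3′ toward the start site, and capitals mark the SMAD-binding letters CAGAC or, where these lie on the opposite strand, their reverse complement GTCTG.
Notch3 upstream: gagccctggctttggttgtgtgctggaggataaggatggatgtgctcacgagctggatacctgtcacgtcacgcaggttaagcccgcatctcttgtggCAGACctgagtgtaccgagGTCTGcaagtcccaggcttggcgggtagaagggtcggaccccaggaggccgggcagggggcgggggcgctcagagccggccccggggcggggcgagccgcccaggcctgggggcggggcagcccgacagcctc
Jag1 upstream: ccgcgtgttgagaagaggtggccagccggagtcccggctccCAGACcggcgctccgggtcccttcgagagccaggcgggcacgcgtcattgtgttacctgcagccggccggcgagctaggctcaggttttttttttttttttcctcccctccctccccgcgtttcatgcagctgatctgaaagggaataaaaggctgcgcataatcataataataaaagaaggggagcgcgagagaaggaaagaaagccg
These letters were found on either strand in 5 of the 8 windows, which belong to Notch3, Notch4, Jag1 and Dll1, and in 49.6% of all 32817 windows. The core letters bound by RBPJ, TGGGAA, were on either strand of none of the 8 windows, against 25.6% of all windows. These windows belong to receptors and ligands and to none of the target genes. The AP-1 letters TGANTCA, searched likewise, were in a Notch4 and a Dll1 window and in 7.81% of all. The N box bound by HES repressors, CACNAG, was in 4 of the 8 windows, which belong to Notch1, Notch2, Notch3 and Dll1, against 42.5% of all. The E box letters CANNTG were in 4 of the 8 windows, against 72.3% of all. The SMAD letters GGCGCC were in 1 window and GTCTAGAC in 0, against 11.9% and 0.213% of all. The longer RBPJ letters GTGGGAA were in 0, against 6.39% of all. The 8 windows were 55.7% to 86% G or C, and the windows they are set against were not matched for this. A match describes these letters only and is not a binding site.

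Notch3, a receptor best known from vascular smooth muscle cells and pericytes, had the largest log2 fold change of the 4 receptors. The gene (ENSMUSG00000038146) lies at chr17:32120820-32166852 on GRCm38. Its level, as reads of the gene scaled to the normalized library size (CPM), was 45.7, 40.1, 39.3 and 40.4 CPM in the 4 untreated libraries and 275, 275, 299.7 and 295 CPM in the 4 treated ones. The groups were far apart, with the lowest treated library well above the highest untreated one. Means were 41.4 ± 2.93 and 286 ± 13.2 CPM (SD, n = 4 each), a log2 fold change of 2.79 (SE 0.0549). The likelihood ratio statistic was 2432, at which edgeR's FDR was too small to be represented, and the quasi-likelihood test gave an FDR of 2.24e-14. The change lay at percentile 98.1 of all genes tested. Of the transcript's 75-base stretches, 4.23% are also found on the opposite strand in Gm17276, which had at most 1 count in any library.

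Mural cell markers were higher in the same libraries. Of 9 such genes, 8 were tested and all 8 were higher by edgeR's likelihood ratio test, against 37.6% of all genes tested. Among them were the contractile genes Acta2 (log2 fold change 1.89), Myh11 (1.80), Cnn1 (1.44) and Tagln (0.99). Myh11, with at most 11 counts in an untreated library, passed the filter mainly through its treated libraries. The summed level of the list ranged from 981 to 1048 CPM in untreated and from 2728 to 2888 CPM in treated libraries. Rgs5, a pericyte marker, had 0 counts in every untreated library and between 2 and 7 counts in the treated ones. Their part in the change of the Notch genes was not tested.

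Notch1, the receptor that acts most broadly in endothelium, was at 41.4, 35.7, 36.6 and 39.1 CPM in untreated libraries and at 97.2, 93.6, 94.3 and 91.4 CPM after TGFβ1. Treated libraries differed little from each other and did not overlap with untreated ones. The log2 fold change was 1.30 (SE 0.0544, edgeR's likelihood ratio test, FDR = 5.06e-125), from a mean of 38.2 ± 2.58 to 94.1 ± 2.38 CPM (SD, n = 4). The gene (ENSMUSG00000026923) lies at chr2:26457903-26516663, where 6.5% of its 75-base stretches are shared with the opposite-strand gene 0610009E02Rik, which had at most 17 counts per library.

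Notch2, a widely expressed receptor, changed least of the 7 genes tested. Its level was 103, 110, 103 and 108 CPM untreated and 166, 151, 151 and 149 CPM after TGFβ1. The first treated library stood above the other 3, and the groups did not overlap. The log2 fold change was 0.54 (SE 0.0480, edgeR's likelihood ratio test, FDR = 8.98e-29), from 106 ± 3.52 to 154 ± 7.92 CPM (SD, n = 4), which placed it at percentile 79.5 of all genes. Notch2 (ENSMUSG00000027878) lies at chr3:98013527-98150361, and 3.06% of its stretches are shared with Gm42820 on the same strand, which had at most 6 counts in any library.

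Notch4, a receptor largely restricted to endothelium, was close to the detection limit before treatment. It had 5, 7, 4 and 6 counts in untreated and 29, 29, 28 and 47 counts in treated libraries, or 0.241, 0.263, 0.175 and 0.304 CPM against 1.57, 1.41, 1.38 and 1.82 CPM. A gene with 3 counts lies between 0.113 and 0.162 CPM in these libraries, so the untreated level rests on few reads. The groups did not overlap, and the log2 fold change was 2.65 (95% interval 1.98 to 3.31, edgeR's likelihood ratio test, FDR = 2.42e-20). The gene (ENSMUSG00000015468) lies at chr17:34564268-34588503, and none of its 75-base stretches is shared with another gene.

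The makeup of the receptor mRNA shifted with these unequal changes. To compare genes, CPM were divided by the kilobases of exon (RPKM). Notch2 had the highest level in untreated libraries, 9.83 ± 0.327 RPKM, against 5.12 ± 0.362 RPKM for Notch3 and 2.68 ± 0.181 RPKM for Notch1 (SD, n = 4). After TGFβ1 Notch3 had the highest level, 35.4 ± 1.63 RPKM, followed by Notch2 at 14.3 ± 0.734 and Notch1 at 6.62 ± 0.167 RPKM, while Notch4 was at 0.192 RPKM, against 0.0305 RPKM untreated. The 4 receptors together rose from between 17.0 and 18.2 to between 54.7 and 57.8 RPKM. The share of Notch3 in this sum was 28.9% ± 1.49 untreated and 62.6% ± 1.83 treated, and that of Notch2 was 55.7% ± 2.11 and 25.4% ± 1.46.

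Within each library the ratio of Notch3 to Notch2 per length was 0.591, 0.487, 0.510 and 0.497 untreated and 2.20, 2.42, 2.65 and 2.63 treated. Notch2 was thus ahead in every untreated and Notch3 in every treated library, and the within-library ratio does not depend on the scaling between libraries. With the longest protein-coding transcript as length, a choice made after the data were seen, the share of Notch3 was 26.7% and 58.9%, and Notch2 and Notch3 still led in their groups.

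**Figure D2:**
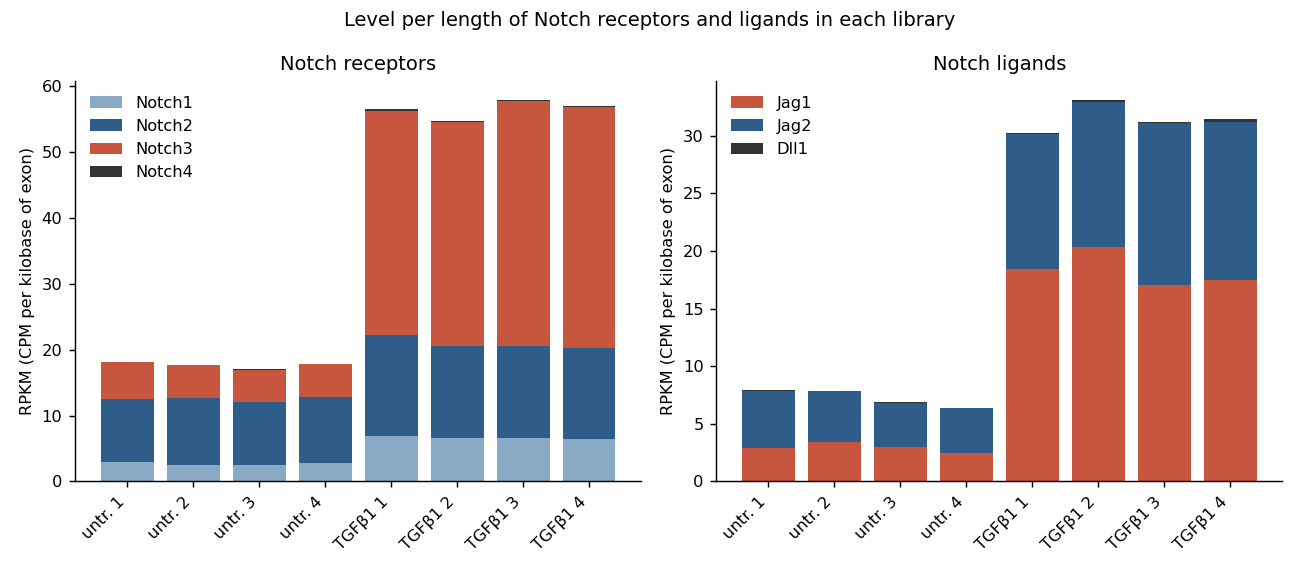
Level per length (RPKM, CPM per kilobase of exon) of the 4 receptors (left) and the 3 ligands (right), stacked for each of the 8 libraries. The summed receptor level is between 17.0 and 18.2 RPKM in untreated and between 54.7 and 57.8 RPKM in treated libraries, with Notch2 the largest segment before and Notch3 the largest after TGFβ1.

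Jag1, the ligand that signals from endothelium to mural cells in developing vessels, rose more than Jag2. Its level was 16.8, 20.0, 17.3 and 14.4 CPM in untreated and 107, 119, 99.1 and 102 CPM in treated libraries. Every treated library was several-fold above every untreated one. Means were 17.1 ± 2.30 and 107 ± 8.64 CPM (SD, n = 4), a log2 fold change of 2.63 (SE 0.0842, edgeR's likelihood ratio test, FDR = 9.34e-203). Jag1 (ENSMUSG00000027276) lies at chr2:137081456-137116644.

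Jag2, the other Jagged ligand, was at 34.7, 30.5, 26.9 and 27.4 CPM untreated and at 81.9, 87.9, 98.4 and 95.9 CPM treated. The groups did not overlap, and the log2 fold change was 1.61 (SE 0.0811, edgeR's likelihood ratio test, FDR = 3.94e-84), from a mean of 29.9 ± 3.60 to 91.0 ± 7.57 CPM (SD, n = 4). The 95% intervals of the Jag1 change, 2.47 to 2.80, and of the Jag2 change, 1.45 to 1.77, did not meet. Jag2 (ENSMUSG00000002799) lies at chr12:112907819-112929776.

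Dll1, a Delta-type ligand, was hardly expressed. It had 7, 8, 4 and 1 counts untreated and 5, 11, 7 and 22 counts treated, and the groups overlapped. The treated to untreated ratio of the summed counts, 45 against 20, was 2.38 after scaling, with a 95% interval from 1.38 to 4.25 that covers counting error only. In a fit with no filter on low counts (27709 genes) the log2 fold change was 1.17, with an FDR of 0.0255 in edgeR's likelihood ratio test and 0.0811 in DESeq2. Without the treated library with 22 counts it was 0.76 (likelihood ratio test, FDR = 0.194), so the call did not hold without that library. Dll1 (ENSMUSG00000014773) lies at chr17:15367354-15376872 and shares 13.7% of its stretches with the opposite-strand gene A930024N18Rik, which was not analysed here.

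Per length, Jag2 was ahead of Jag1 in untreated libraries, with 4.29 ± 0.517 against 2.94 ± 0.395 RPKM (SD, n = 4), and Jag1 was ahead after TGFβ1, with 18.3 ± 1.48 against 13.1 ± 1.09 RPKM. The within-library ratio of Jag1 to Jag2 was 0.579, 0.785, 0.770 and 0.629 untreated and 1.57, 1.61, 1.20 and 1.27 treated, so that Jag2 was ahead in every untreated and Jag1 in every treated library. With the longest protein-coding transcript as length the treated ratio was 1.19, 1.23, 0.917 and 0.964, above 1 in 2 of 4 libraries, so which ligand was ahead after TGFβ1 depends on the length used, while the rise of the ratio does not. Jag1 made up 40.4% ± 3.57 of the summed ligand level before and 58.1% ± 3.61 after treatment, or 34.1% ± 3.33 and 51.4% ± 3.70 with the coding transcript as length, and the sum of the 3 ligands on exon length went from 7.28 ± 0.760 to 31.5 ± 1.18 RPKM.

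Hes1, a repressor that is among the most direct targets of Notch and also responds to other pathways, was at 9.64, 9.88, 8.56 and 8.47 CPM untreated and at 28.9, 28.7, 33.4 and 29.3 CPM treated. The treated libraries lay close together except for the third, which was somewhat higher, and all were above the untreated ones. The log2 fold change was 1.71 (SE 0.0831, edgeR's likelihood ratio test, FDR = 2.72e-96), from 9.14 ± 0.725 to 30.1 ± 2.23 CPM (SD, n = 4). Hes1 (ENSMUSG00000022528) lies at chr16:30064384-30067796.

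Hey1 and Heyl, targets that are prominent in arteries and mural cells, were barely detected and were not tested in the filtered table. Hey1 had 4, 1, 3 and 1 counts untreated and 7, 6, 9 and 16 counts treated. The groups did not overlap, and the scaled ratio of the sums, 38 against 9, was 4.46 (95% counting interval 2.12 to 10.5). Heyl had 0, 0, 0 and 1 counts untreated and 2, 3, 3 and 8 counts treated, which gave a ratio of 16.9 with a counting interval from 2.63 to 709.5. With no filter on low counts both had an FDR under 0.05 in edgeR's likelihood ratio test (7.30e-05 for Hey1 and 0.000308 for Heyl) and in DESeq2 (0.00638 and 0.0111). Their levels after TGFβ1, 0.133 and 0.0348 RPKM, remained far below the 14.8 ± 1.10 RPKM (SD, n = 4) of Hes1. Hey1 (ENSMUSG00000040289) lies at chr3:8663359-8667256, and Heyl (ENSMUSG00000032744) lies at chr4:123233556-123249875.

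The order of the 10 genes per length can be summarized by group. In untreated libraries Notch2 and Notch3 led, the ranges of Hes1 and Jag2 overlapped behind them, as did those of Jag1 and Notch1, and Dll1, Hey1 and Notch4 overlapped near the detection limit. After TGFβ1 Notch3 and Jag1 led, the neighbours Hes1, Notch2 and Jag2 overlapped, and Notch1 followed. With the longest protein-coding transcript as length, Hes1 and Jag2 came before Notch3 in untreated libraries, at 6.22 and 5.85 against 5.16 RPKM, and Notch1 came before Jag1, at 4.03 against 3.05 RPKM. After TGFβ1 Notch3 still led on that scale, at 35.7 RPKM, but Hes1 (20.5 RPKM) came before Jag1 (19.0 RPKM), and Jag2 (17.8 RPKM) before Notch2 (14.7 RPKM).

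**Figure D3:**
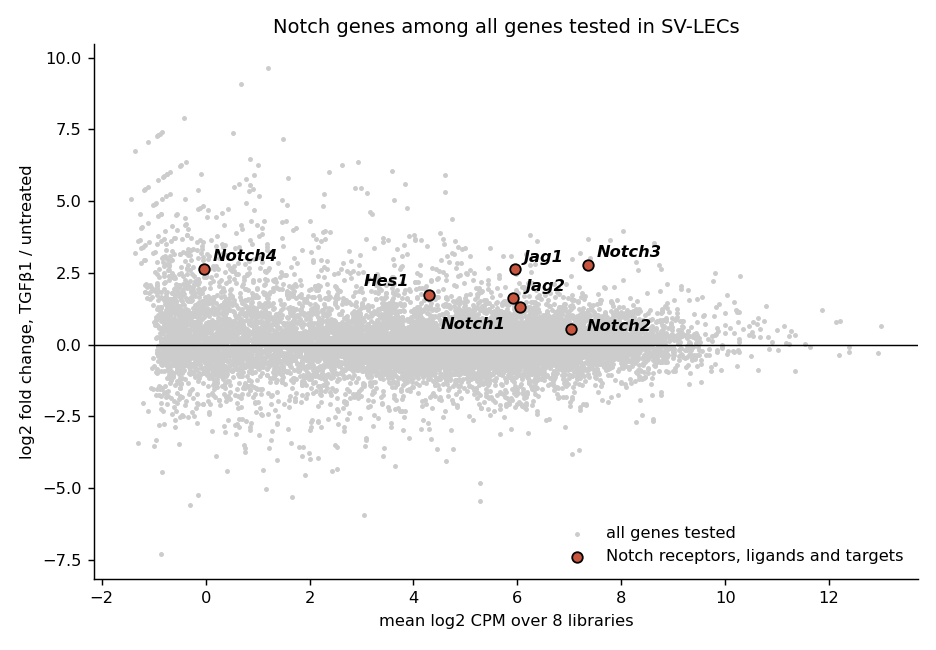
Log2 fold change after TGFβ1 (vertical axis) against mean log2 CPM over the 8 libraries (horizontal axis) for all 13818 genes tested, in grey, and for the 7 Notch genes tested, in red. Jag1 and Notch3 are near the upper edge of the genes at their expression level, and Notch2 lies at 0.54.

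The rest of the Notch machinery moved in both directions. Of 65 other pathway genes, 56 were tested, of which 21 were higher and 19 were lower by edgeR's likelihood ratio test. The share called higher, 37.5%, was close to that of all genes, the median log2 fold change was 0.03, and 42 of the 56 lay within 0.5 of no change.

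Other ligands and ligand-like proteins included the largest decrease. Dlk1, a ligand-like protein that lacks the domain for activating Notch, was at 201, 169.5, 143 and 129 CPM untreated and at 24.0, 20.5, 28.3 and 30.8 CPM treated. The groups did not overlap (log2 fold change -2.63, SE 0.134, edgeR's likelihood ratio test, FDR = 2.85e-76), and within each library the ratio of Jag1 to Dlk1 per length was between 0.0812 and 0.118 untreated and between 3.20 and 5.60 treated. Its relative Dlk2 was higher (log2 fold change 1.85, from 1.01 to 3.59 CPM). Mfap2 (-0.44) and Egfl7 (-0.29) were lower, and Mfap5 was not called (0.18). The groups of Egfl7 overlapped, and its FDR was 0.0345 in edgeR's likelihood ratio test but 0.0727 in DESeq2. The Delta ligand Dll4, prominent in arterial cells and in tip cells, had 0 counts in every untreated library and at most 3 in a treated one. Dll3 had at most 5 counts, and Dner had 0 throughout.

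Of the ubiquitin ligases that help ligands to be internalized, Neurl1b was lower, from 16.7 to 3.97 CPM (log2 fold change -2.07, SE 0.112, edgeR's likelihood ratio test, FDR = 3.52e-82), as was Mib2 (-0.36). Mib1 (0.02) and Neurl1a (0.01) were not called. Among the enzymes that add sugars to the receptors, Lfng, a Fringe that alters the response to Jagged and Delta ligands, was lower, from 18.2 to 7.32 CPM (log2 fold change -1.31, SE 0.0937, FDR = 1.50e-44 by edgeR's likelihood ratio test). Pofut1 (0.42), Poglut1 (0.32) and the Fringe Rfng (0.25) were higher, and Mfng had at most 1 count per library.

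Most genes of the cleavage and nuclear steps changed little. Of all genes tested, 75.6% were called in one direction or the other and 37.6% were called higher. Of 10 receptor proteases and γ-secretase subunits 3 were higher and 3 lower, the largest changes being those of Psenen (-0.44), Ncstn (0.35), Furin (0.34) and Adam17 (-0.21). In the nuclear activator complex 2 of 7 were higher and 3 lower, and Rbpj itself was lower (-0.38), as was the coactivator Maml1 (-0.49), while Ep300 (0.39) and Maml2 (0.36) were higher. Of 11 corepressors 4 were higher and 4 lower. The shares called were 60% of the proteases, 71.4% of the activator complex and 72.7% of the corepressors, none above that of all genes. Tle1, a Groucho-type corepressor, was lower (-0.92), and L3mbtl3 (0.82) and the histone deacetylase Hdac1 (0.50) were higher.

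Of 10 inhibitors and turnover genes tested, 4 were higher and 2 lower. The share called was 60%, against 75.6% of all genes tested. Fbxw7, which marks the active intracellular domain for degradation, was higher (log2 fold change 1.22, from 23.4 to 54.3 CPM), as was Dtx3l (0.81), and Dtx2 (-0.71) and Itch (-0.33) were lower. Dtx1, which was not tested, had 1, 3, 0 and 0 counts untreated and 6, 5, 7 and 11 counts treated. Nrarp, a direct Notch target and feedback inhibitor that is named here after its values were seen, was not called, with a log2 fold change of 0.24 (95% interval -0.16 to 0.64) and an FDR of 0.279 in edgeR's likelihood ratio test.

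Of the other HES and HEY factors, 5 were tested and 4 were higher, against 37.6% of all genes tested. Hey2, an arterial target of Notch, had 3, 7, 6 and 3 counts untreated and 34, 44, 35 and 32 counts treated (log2 fold change 2.99, SE 0.372, edgeR's likelihood ratio test, FDR = 8.95e-22). Hes2 had 0, 3, 0 and 5 counts untreated and 21, 26, 22 and 34 counts treated (log2 fold change 3.68, SE 0.533, FDR = 2.99e-22 by the same test). In neither did the groups overlap, and both were low, at 1.74 and 1.20 CPM after treatment. Both passed the filter through their treated libraries, so they could hardly have been called lower. Bhlhe40 (0.55) and Hes6 (0.45) were higher and Bhlhe41 (-0.63) was lower. Hes3, Hes5 and Helt had 0 counts throughout, and Hes7 had at most 4 counts in any library.

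**Figure D4:**
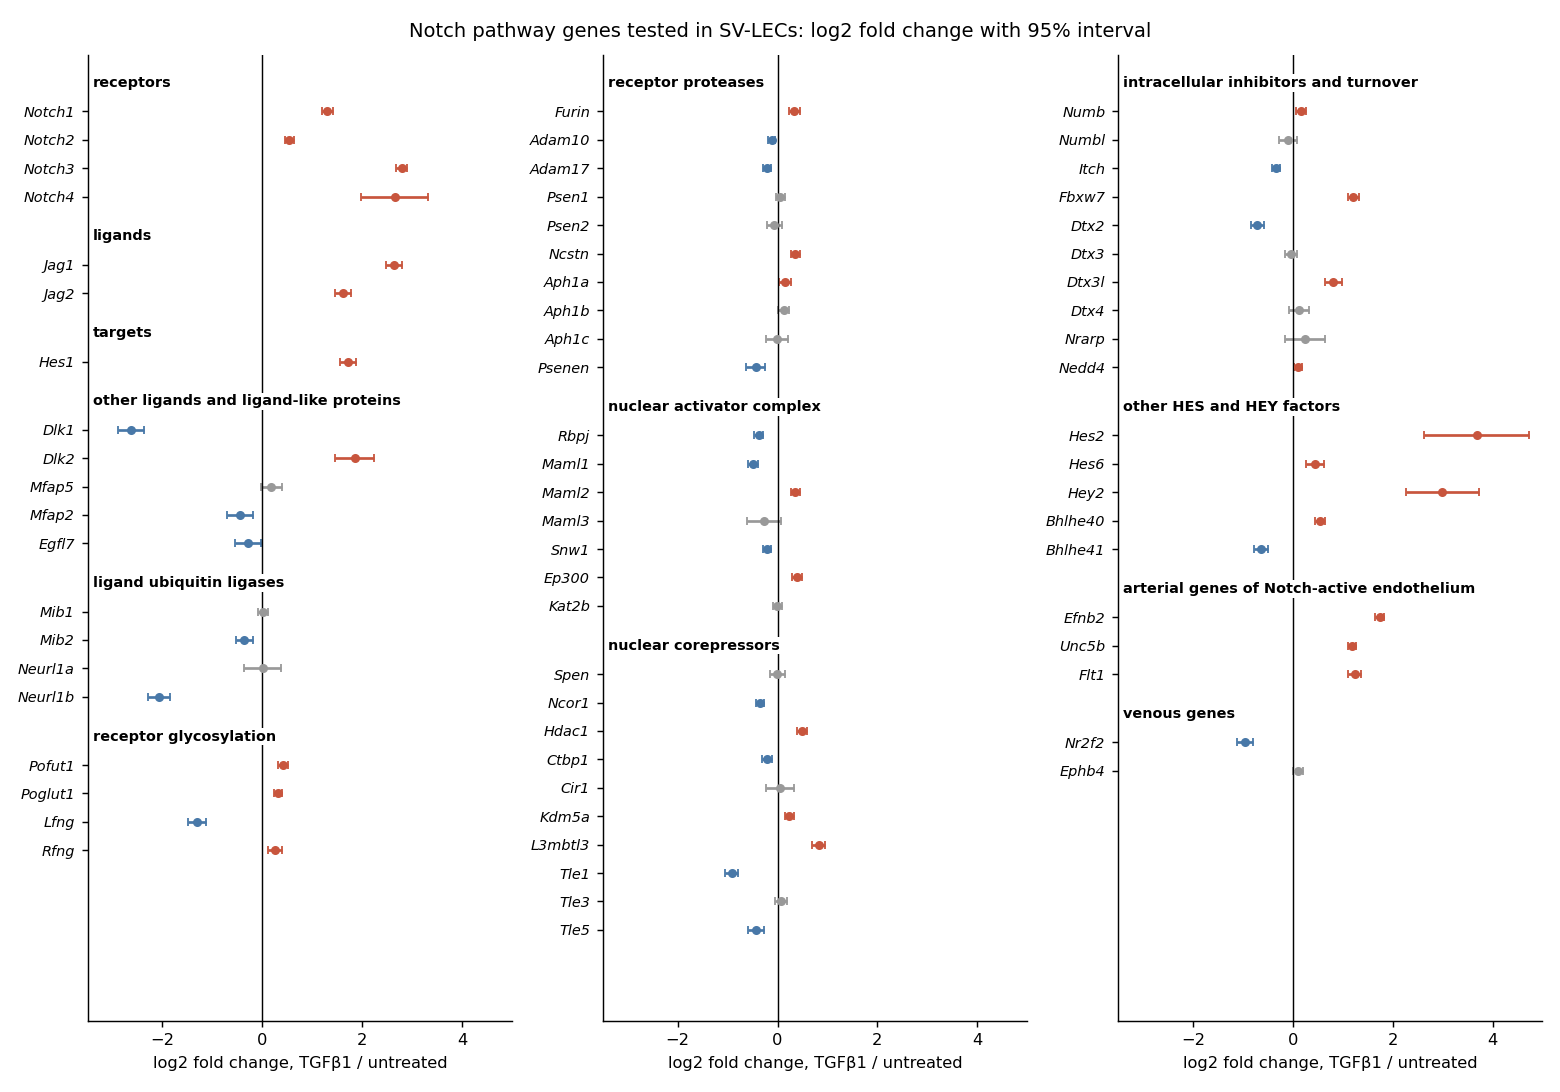
Log2 fold change (TGFβ1 over untreated, horizontal axis) with its 95% interval for the 7 Notch genes tested, the other pathway genes tested except 1 and 5 arterial and venous genes, grouped by role. Red is higher and blue lower at an FDR under 0.05 in edgeR's likelihood ratio test, and grey is not called; receptors, ligands, Hes1 and the 3 arterial genes are all to the right of 0.

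Genes that mark arterial and venous endothelium, whose balance Notch is known to set, were examined last. Efnb2, an arterial ephrin, was at 40.1, 44.4, 44.1 and 41.9 CPM untreated and at 142, 144, 138 and 147 CPM treated. The groups did not overlap (log2 fold change 1.74, SE 0.0489, edgeR's likelihood ratio test, FDR = 1.71e-273). Unc5b (1.19) and Flt1 (1.24), also on the arterial list, were higher too. Thus 3 of the 3 genes tested from that list were higher, against 37.6% of all genes tested. Gja4, Gja5 and Sox17 were not tested, with at most 7, 1 and 0 counts in any library. Of the venous genes, Nr2f2 fell from 45.8 to 23.7 CPM (log2 fold change -0.95, SE 0.0805, FDR = 3.12e-31 by the same test), and Ephb4, the receptor of Efnb2, was not called, at 136 and 146 CPM (log2 fold change 0.10, 95% interval -0.0041 to 0.21).

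Markers of other cell types were also summed over each list. The pan-endothelial list went from between 14.0 and 16.1 to between 26.2 and 28.3 CPM, with 2 of its 3 tested genes higher. Kdr made up most of it, with means of 11.6 CPM untreated and 22.1 CPM treated, and Tek was not called. The lymphatic list was between 412 and 448 CPM untreated and between 426 and 440 CPM treated, with 2 of 3 tested genes higher and 1 lower. Most of this sum was Pdpn, the lower gene, with means of 342 CPM untreated and 313 CPM treated. Fibroblast genes summed to between 7977 and 10317 CPM and to between 10372 and 11804 CPM, with 1 of 4 tested genes higher and 2 lower. Col1a1 and Col1a2 made up most of this sum. Col1a1 rose from a mean of 3459 to 6057 CPM and Col1a2 was not called, while Pdgfra (log2 fold change -1.47) and Dcn (-1.91) were lower. Epithelial genes summed to at most 10.0 CPM (2 of 3 tested higher, 1 lower). Leukocyte genes summed to between 6.02 and 8.25 CPM untreated and between 16.2 and 18.5 CPM treated (2 of 2 tested higher). Nearly all of the leukocyte sum was Cd68, with means of 6.96 CPM untreated and 15.9 CPM treated, while Ptprc, the common leukocyte marker, had at most 1 count. Krt8, Krt18 and Csf1r had few untreated counts and passed the filter mainly through treated libraries. Of all genes tested, 37.6% were higher. The part of these markers in the Notch gene changes was not tested.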

How the data were processed

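Libraries were made by the authors with a stranded poly(A) kit and sequenced as single 75-base reads, and the deposited values are raw counts of reads per gene. The submitters' processing notes name bcl2fastq 2.20.0.422, STAR 2.7.3a and featureCounts 1.5.1, with reads mapped to GRCm38. The strand setting and annotation release are not given in the sources used here. Samples were grouped by their labels.

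The groups were compared with edgeR 4.0.16 under R 4.3.3 (filterByExpr, TMM, glmFit and glmLRT, prior count 0.125), and FDRs were taken over all 13818 genes that passed the filter. SEs come from the fitted model, and 95% intervals are normal intervals from these SEs. The quasi-likelihood test, DESeq2 1.42.0, other scalings, filters and prior counts, a replicate block and the omission of each library served as alternatives. Total counts of 18952504 to 26386941 place 3 counts at 0.113 to 0.162 CPM; intervals of ratios of summed counts cover counting error only. RPKM used the summed exon length of each gene in a GRCm38 annotation. The scripts were tested on simulated data.

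The Notch genes and all gene lists were chosen with earlier results of these data known. All 10 Notch genes are named. Within each role of the pathway and of the arterial and venous lists, every gene is named where at most 6 were tested, and otherwise the 4 called genes with the largest absolute log2 fold change, plus genes too low to be tested. From each marker list up to 4 genes are named in the order of the list. Rgs5, Kdr and Esam are named in addition, chosen after their values were seen. For 1 pathway gene that this rule would name, the result is not reported here.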

Additional observations from a re-analysis of the deposited data

Results flagged for a closer look

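In 4 of the 20 sets of 4 libraries (10 genes in each group), the highest library stood apart from the other 3, with a gap to the nearest library that exceeded Dixon's 95% critical value for 4 samples. Chance alone gives such a gap in about 1 of 20 sets, and genes of the same library are not independent. Notch2 was at 166 CPM in the first TGFβ1 library, and without it the log2 fold change was 0.50. Notch3 was at 45.7 CPM in the first untreated library, and without it the log2 fold change was 2.84. Hes1 was at 33.4 CPM in the third TGFβ1 library, and without it the log2 fold change was 1.66. Heyl was at 0.0507 CPM in the fourth untreated library, which is 1 count against 0 in the other 3.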

How the results depend on the processing

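The 7 Notch genes tested kept their direction and an FDR under 0.05 in all 17 alternatives, with log2 fold changes of 1.24 to 1.34 for Notch1, 0.47 to 0.56 for Notch2, 2.72 to 2.84 for Notch3, 2.30 to 2.75 for Notch4, 2.56 to 2.72 for Jag1, 1.54 to 1.68 for Jag2 and 1.65 to 1.76 for Hes1. The lowest Notch4 value came with a prior count of 2. With no filter on low counts all 10 were called higher. Pathway genes called higher numbered 18 to 22 and lower 18 to 19, and between 9564 and 12140 genes were called in all. Libraries with the same number did not deviate together (correlations -0.193 to -0.0336), so the numbers were not taken as a pairing. With the replicate block 7 Notch genes were higher and 0 lower (also 0 in the likelihood ratio, quasi-likelihood and DESeq2 fits), 21 pathway genes were higher and 18 lower, 10152 genes were called, and Notch3 had a log2 fold change of 2.79. Alternatives chosen after the data were seen concerned the 3 genes of low counts and the transcript length. With no filter, Dll1 had an FDR above 0.05 in DESeq2 (0.0811) and in edgeR's likelihood ratio test without untreated library 3 (0.0757), untreated library 4 (0.0998), TGFβ1 library 2 (0.0546) or TGFβ1 library 4 (0.194), with log2 fold changes from 0.76 to 1.42 over the omissions. Hey1 and Heyl kept an FDR under 0.05 in the same fits. Depth limits what can be said of Notch4, Dll1, Hey1 and Heyl, and with 1 cell line and technical replicates no p-value extends to other cultures.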
